A study of Mus musculus with 8 samples.

Results

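Hox genes and the T-box genes Tbx1 to Tbx5 were compared between lung mesenchymal cells of HhipCKO and Control mice. Members were taken by symbol, as every gene named Hox with a cluster letter and a number, plus Tbx1, Tbx2, Tbx3, Tbx4 and Tbx5. Of 44 such genes in the annotation, 35 have an entry among the 31607 genes of the authors' deposited table, 30 of them Hox genes and 5 of them T-box genes. An adjusted p is given there for 22 members, 17 Hox genes and all 5 T-box genes, and genes with one are called tested here. The other 13 have mean normalized counts of at most 23.5, and in the authors' deposited table a mean of 42.1 is the lowest of any gene that has one.

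HhipCKO mice were adults with the genotype UBCcreER/Myh11creER/Hhipflox/flox. Control mice were adults with the genotype Hhipflox/flox and no recombinase. Both groups were given tamoxifen, which switches the recombinase on, and each gave 4 libraries. Myh11 encodes smooth muscle myosin, so that driver is active in smooth muscle. Cells were kept when negative for CD45, CD31 and Epcam and for the dead-cell dye DAPI. The extraction protocol, however, speaks of cultured cells, and no label says whether mice were pooled.

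Hox genes encode homeodomain transcription factors and lie in 4 clusters, where gene order follows the order of use from head to tail in the embryo. Genes of the same number in different clusters are called paralogs, low numbers acting in front and high numbers towards the tail. Fibroblasts of an adult organ keep part of this positional code. Hox proteins bind DNA together with TALE homeodomain partners of the Pbx and Meis families, and Polycomb and trithorax complexes hold the clusters silent or active. In mouse lung, Hoxa5 is needed in the mesenchyme for airway and alveolar development. Tbx4 and Tbx5 act there in bud formation and branching, and Tbx2 and Tbx3 keep the embryonic mesenchyme proliferating.

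Hhip, the deleted gene, encodes a surface inhibitor of hedgehog signalling. The authors' deposited table lists it at a log2 change of -2.62 ± 0.32 (SE), which puts the group means near 10030 normalized counts in HhipCKO and 61686 in Control. All 8 lung mesenchyme markers, Tbx4 among them, had means between 14793 and 975871 normalized counts, and 0 of them passed the test. Of 14 tested chondrocyte markers, 7 fell, and their summed level was 12498 normalized counts in HhipCKO and 49203 in Control. Of 10 tested macrophage and monocyte markers, 1 rose, and their summed level was 61419 normalized counts in HhipCKO and 25038 in Control. Lyz2, a lysozyme gene that alveolar epithelium also expresses, carried that sum without passing, at 1.53 ± 1.35 (SE) by the authors' deposited table. Without Lyz2, left out after its values were seen, the sum was 5076 in HhipCKO and 5566 in Control, although 8 of those 9 markers had a positive log2 change. The exception was Csf1r, which had the highest mean of those 9, at 3067 normalized counts, and so carried the lower sum. Its log2 change was -0.59 ± 0.39 (SE) by the authors' deposited table. The lowest mean was 28.2 normalized counts among the chondrocyte markers and 53.0 among the macrophage and monocyte markers, so none was at 0. Epithelial markers gave 0 calls of 10 tested, with a summed level of 277977 normalized counts in HhipCKO and 144745 in Control. The surfactant genes Sftpc, Sftpb and Sftpa1 carried that sum, with log2 changes of 1.41 ± 1.27, 1.17 ± 1.30 and 1.53 ± 1.39 (SE) by the authors' deposited table. Without these 3, likewise left out afterwards, the other 7 summed to 47343 in HhipCKO and 56649 in Control, although 4 of the 7 had a positive log2 change. Ager had the highest mean of those 7, at 32494 normalized counts, and carried the lower sum. Its log2 change was -0.44 ± 0.37 (SE) by the authors' deposited table. Of 14 cell type lists 9, lung mesenchyme and epithelium among them, had no call over 69 tested genes by the authors' Wald test, 2 of them with an unadjusted p under 0.05. By the same test 10.9% of all tested genes had such a p on the higher side and 10.9% on the lower side. The list of glia and neurons had 1 lower call, and those of pericytes and adventitial fibroblasts had 1 higher call each, Kcnj8 and Ly6a. The other 7 pericyte markers had negative log2 changes, and the median of the 8 was -0.38. The part of these cells in the Hox and T-box values was not tested. In bulk RNA, fewer cells of a type and less RNA per cell cannot be told apart.

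Values of single libraries were not analysed here, since the authors' deposited table holds a mean over all 8 libraries and 1 comparison. The group means given for a gene follow from its mean and its fold change and are approximate. They have no SD, and the error of a comparison is the authors' standard error (SE) with the 95% interval made from it. Each call is the authors' own Wald test from DESeq, with p-values adjusted by Benjamini-Hochberg over 17469 genes and a threshold of 0.05. All log2 changes are HhipCKO over Control. No label says that the libraries came from separate mice, so the p-values measure the spread between libraries, which may be technical.

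The promoters of 3 Hox genes are shown. Hoxa2 and Hoxb8 are 2 of the genes that rose in HhipCKO, and Hoxa5 had the highest level of all Hox genes. Each sequence is the RefSeq window on GRCm38.p6 from 250 bases before to 50 bases after the start, read 5′ to 3′ on the gene's strand. That of Hoxa2 is chr6:52164782-52165081 on the minus strand. That of Hoxb8 is chr11:96281655-96281954 on the plus strand, and that of Hoxa5 is chr6:52204538-52204837 on the minus strand. Capitals mark letter matches, searched on both strands, which are named after the sequences.
Hoxa2: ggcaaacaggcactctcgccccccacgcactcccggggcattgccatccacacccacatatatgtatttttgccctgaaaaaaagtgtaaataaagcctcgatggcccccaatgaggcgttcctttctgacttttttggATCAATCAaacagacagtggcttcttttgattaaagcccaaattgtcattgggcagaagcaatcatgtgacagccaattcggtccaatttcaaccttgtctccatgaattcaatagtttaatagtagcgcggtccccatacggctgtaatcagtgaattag
Hoxb8: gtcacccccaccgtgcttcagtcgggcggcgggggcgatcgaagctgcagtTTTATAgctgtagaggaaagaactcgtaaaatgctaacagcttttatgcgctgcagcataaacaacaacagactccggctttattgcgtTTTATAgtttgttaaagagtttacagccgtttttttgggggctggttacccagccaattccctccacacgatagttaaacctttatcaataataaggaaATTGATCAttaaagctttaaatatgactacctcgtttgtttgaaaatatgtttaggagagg
Hoxa5: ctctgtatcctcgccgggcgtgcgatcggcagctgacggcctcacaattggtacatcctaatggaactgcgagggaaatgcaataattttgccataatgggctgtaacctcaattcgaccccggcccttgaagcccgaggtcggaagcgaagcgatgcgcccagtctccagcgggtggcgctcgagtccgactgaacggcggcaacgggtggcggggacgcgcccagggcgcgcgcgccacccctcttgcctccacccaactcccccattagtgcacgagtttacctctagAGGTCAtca

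In Hoxa2 the capitals are a match to TGATNNAT, a joint site of Pbx and Hox proteins. Hoxb8 has 1 such match, and its other 2 stretches of capitals read TTTATA, the reverse complement of TATAAA, the letters of the TATA box. The capitals in Hoxa5 are AGGTCA, a half-site of retinoic acid receptors. Promoters were at hand for 20 of the 35 listed members, 22 windows in all, and Hoxa4 was not among them. The joint Pbx and Hox letters were in 3 of the 22 windows, those of Hoxa2, Hoxb1 and Hoxb8, and in 8.85% of 32851 windows of all genes. The receptor half-site was in 6 of the 22, those of Hoxa5, Hoxb4, Hoxc4, Hoxd3, Hoxd4 and Hoxd8, and in 16.3% of all windows. The TATA letters were in 5 of the 22 and in 13.6% of all windows. The T-box letters AGGTGTGA were found for Hoxd9 alone among the 22 and in 1.28% of all windows. GACCACCCA, the site of the GLI factors of the hedgehog pathway, was in 0 of the 22 and in 0.253% of all windows. No motif overlapped another in the 3 windows shown, and a match to short letters is a description of the window, not a bound site.

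Transcripts of the front and middle Hox groups were present in these cells, and those of the tail groups were near 0. The level per kilobase of exon was highest for Hoxa5, at 5444 mean normalized counts per kb, which is percentile 96.7 among 31555 annotated genes. Hoxb4 followed with a level of 2291 per kb, ahead of Hoxb5 at 1459 per kb, Hoxa2 at 1292 per kb and Hoxb3 at 1267 per kb. Hoxa4 had a level of 862 per kb, close to Hoxa3 at 842 per kb. Length here is that of all annotated exons of a gene merged, 1594 bases for Hoxa4 and 6014 for Hoxa3. Their longest transcripts have 1594 and 2591 bases, so the order of nearby levels depends on the length used. Hoxb8 stood far lower, at 62.6 per kb. The Hoxa cluster on chromosome 6 (52155590 to 52260880 on GRCm38) and the Hoxb cluster on chromosome 11 (96194316 to 96368256) had 7 tested genes each. The Hoxc cluster on chromosome 15 (102921103 to 103036852) had 2, Hoxc4 and Hoxc5, and the Hoxd cluster on chromosome 2 (74668310 to 74765142) had 1, Hoxd8.

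The 8 listed genes of paralog groups 9 to 13 had means of 0.487 to 15.8 normalized counts in the authors' deposited table, and none had an adjusted p. Hoxa9 had a level of 1.63 per kb, against 732 per kb for Hoxa7, the next Hox gene towards the front. Hoxb9 had a level of 0.569 per kb, against 62.6 per kb for its neighbour Hoxb8. In both clusters the level dropped between neighbouring Hox genes. Of the front and middle genes, Hoxb1, Hoxc6, Hoxc8, Hoxd3 and Hoxd4 also had no adjusted p, with means of 0.477 to 23.5 in the authors' deposited table. Hoxd1, Hoxd10, Hoxd11, Hoxd12, Hoxb13, Hoxc10, Hoxc11, Hoxc12 and Hoxc13 were not analysed here.

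Among the T-box genes, Tbx2 and Tbx4 had a higher level per kilobase than any Hox gene. Tbx2, a repressor of cell cycle inhibitors, had a level of 18345 mean normalized counts per kb, at percentile 99.1. Tbx4 had a level of 9183 per kb, at percentile 98.2, and Tbx5 had 2347 per kb. Tbx3 was at 999 per kb, below Hoxb4 and Hoxa2. Tbx1, a regulator of the pharyngeal arches, had the lowest level of the 5, at 34.4 per kb.

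**Figure D1:**
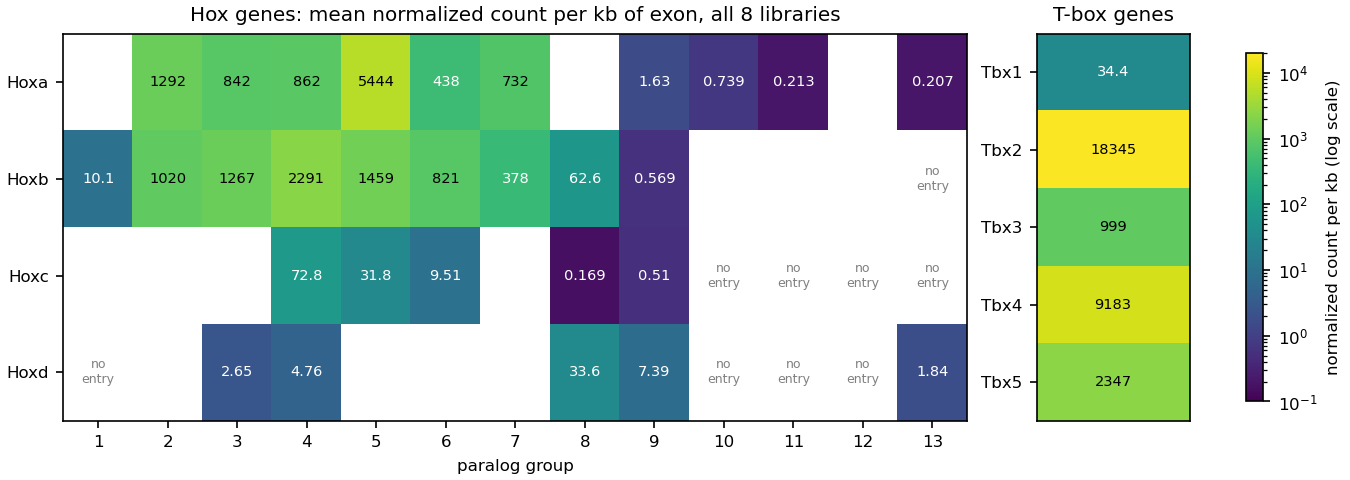
Mean normalized count per kilobase of exon over 8 libraries (log scale) for listed Hox and Tbx genes, arranged by cluster, with blank cells where no value is shown. Hoxa5 is the highest Hox gene at 5444 per kb and Tbx2 the highest T-box gene at 18345 per kb.

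The Hox genes Hoxa4, Hoxa2 and Hoxb8 rose in HhipCKO, and the other 19 tested members did not pass. Of all 17469 tested genes the authors' Wald test called 3.06% higher and 3.92% lower, 6.98% in either direction. Of the 22 tested members it called 3 higher and 0 lower. The log2 change was positive for 20 of the 22, or 90.9%, and for 52.7% of all tested genes. Its median was 0.36 over the members and 0.02 over all genes, and the members ran from -0.35 to 0.86. All 10 members with an unadjusted p under 0.05 were higher in HhipCKO, against 10.9% of all genes on either side.

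Hoxa4, a homeodomain factor that acts in the neck region of the embryo, showed the greatest change of the 22. Its implied mean was 1774 normalized counts in HhipCKO and 975 in Control. The authors' deposited table lists a log2 change of 0.86 ± 0.19 (SE) for Hoxa4 and an adjusted p of 0.000421 (DESeq Wald test), which is 1.82-fold with 95% limits of 1.41 and 2.34. It lies on chromosome 6 from 52189671 to 52191753 on the minus strand. Over 255 bases, or 16.0% of its exons, it overlaps the antisense gene Gm29430. That gene has a mean of 47.2 normalized counts and a log2 change of -0.57 ± 0.42 (SE) by the authors' deposited table. The strand setting of the counting is not given in the sources used here, so reads from the overlap cannot be assigned.

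Hoxa2, which patterns the hindbrain and the second pharyngeal arch, had implied means of 2736 normalized counts in HhipCKO and 1850 in Control. For Hoxa2 the authors' deposited table lists 0.56 ± 0.17 (SE) on the log2 scale and an adjusted p of 0.0177 (DESeq Wald test), which is 1.48-fold with 95% limits of 1.18 and 1.85. The gene spans 52162417 to 52164831 on the minus strand of chromosome 6, and 267 bases of its exons are shared with Gm28308, a gene with a mean of 2.59 in the authors' deposited table.

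Hoxb8, a trunk factor also known for its role in blood cell precursors, had implied means of 208 normalized counts in HhipCKO and 122 in Control. The entry of Hoxb8 in the authors' deposited table is 0.77 ± 0.24 (SE) on the log2 scale, adjusted p 0.0277 (DESeq Wald test), or 1.71-fold with 95% limits of 1.23 and 2.37. Hoxb8 spans 96281905 to 96285315 on the plus strand of chromosome 11, and its exons overlap no other annotated gene.

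How firmly these 3 genes passed depended on the treatment of the authors' values. Hoxa4 still passed once the trend of log2 change on transcript length was taken out, whereas Hoxa2 then had an adjusted p of 0.120 at a log2 change of 0.45, and Hoxb8 one of 0.0776 at 0.71 (Benjamini-Hochberg, from the authors' SE). After scaling every SE by the robust SD of all Wald scores, 1.53, the adjusted p was 0.314 for Hoxa4, 0.687 for Hoxa2 and 0.740 for Hoxb8.

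For 7 more members the 95% interval lay above 0 without the adjusted p passing. Hoxb2, a hindbrain factor, had implied means of 4166 normalized counts in HhipCKO and 2951 in Control, and the authors' deposited table lists 0.50 ± 0.18 (SE) and an adjusted p of 0.0642 for it. Hoxa5 had implied means of 12236 in HhipCKO and 8202 in Control, and the authors' deposited table lists 0.58 ± 0.21 (SE) with an adjusted p of 0.0692. Tbx1 had implied means of 154 in HhipCKO and 87.7 in Control, and its listing in the authors' deposited table is 0.81 ± 0.29 (SE), adjusted p 0.0574. The adjusted p of these 3 was just over the threshold. Hoxd8 had implied means of 112 in HhipCKO and 72.0 in Control, and the authors' deposited table lists 0.64 ± 0.30 (SE), adjusted p 0.183. Hoxa3 and Hoxb4 were also among the 7, at 0.27 ± 0.12 and 0.33 ± 0.17 (SE) by the authors' deposited table.

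Of the 7 tested Hoxa genes, 6 had a positive log2 change, with a median of 0.37. Hoxa7, a trunk factor, had 0.25 ± 0.25 (SE) by the authors' deposited table. The exception was Hoxa6, also of the trunk, with implied means of 336 normalized counts in HhipCKO and 429 in Control, which the authors' deposited table lists at -0.35 ± 0.32 (SE), adjusted p 0.573. All 7 tested Hoxb genes had a positive log2 change, with a median of 0.38. By the authors' deposited table Hoxb3 had 0.21 ± 0.15, Hoxb5 0.34 ± 0.25, Hoxb6 0.41 ± 0.25 and Hoxb7 0.38 ± 0.21 (SE). Hoxb3 shares 52.9% of its exon length with the antisense gene Hoxb3os, and Hoxb2 shares 27.3%. Hoxc4 and Hoxc5 were measured least precisely, at 0.17 ± 0.44 and 0.47 ± 0.47 (SE) by the authors' deposited table.

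With all clusters pooled, each of the following ranges of paralog groups held 1 called gene, against 3.06% of all tested genes called higher. Tested Hoxc and Hoxd genes had 0 calls. Paralog groups 1 to 3 had 5 tested genes with Hoxa2 called, groups 4 and 5 had 6 with Hoxa4 called, and groups 6 to 8 had 6 with Hoxb8 called. Their median log2 changes were 0.37, 0.41 and 0.40. Summed over the 17 tested Hox genes, the implied level was 49674 normalized counts in HhipCKO and 37517 in Control.

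Tbx4 and Tbx5, which act in lung bud formation, had values near 0. Tbx4 had implied means of 32247 normalized counts in HhipCKO and 30216 in Control, and the authors' deposited table lists 0.09 ± 0.19 (SE), adjusted p 0.826. Tbx5 had implied means of 10669 in HhipCKO and 11274 in Control, and the authors' deposited table lists -0.08 ± 0.14 (SE), adjusted p 0.796. The 95% limits of the fold were 0.83 and 1.38 for Tbx4 and 0.78 and 1.14 for Tbx5, and the smallest fold that could have passed was 1.47 for Tbx4 and 1.33 for Tbx5. Tbx2 had implied means of 74149 in HhipCKO and 58886 in Control, with 0.33 ± 0.23 (SE), adjusted p 0.428, as the authors' deposited table lists it. Tbx3 had implied means of 6905 in HhipCKO and 6336 in Control, with 0.12 ± 0.15 (SE), adjusted p 0.696, by the authors' deposited table. Over the 5 T-box genes the median log2 change was 0.12.

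**Figure D2:**
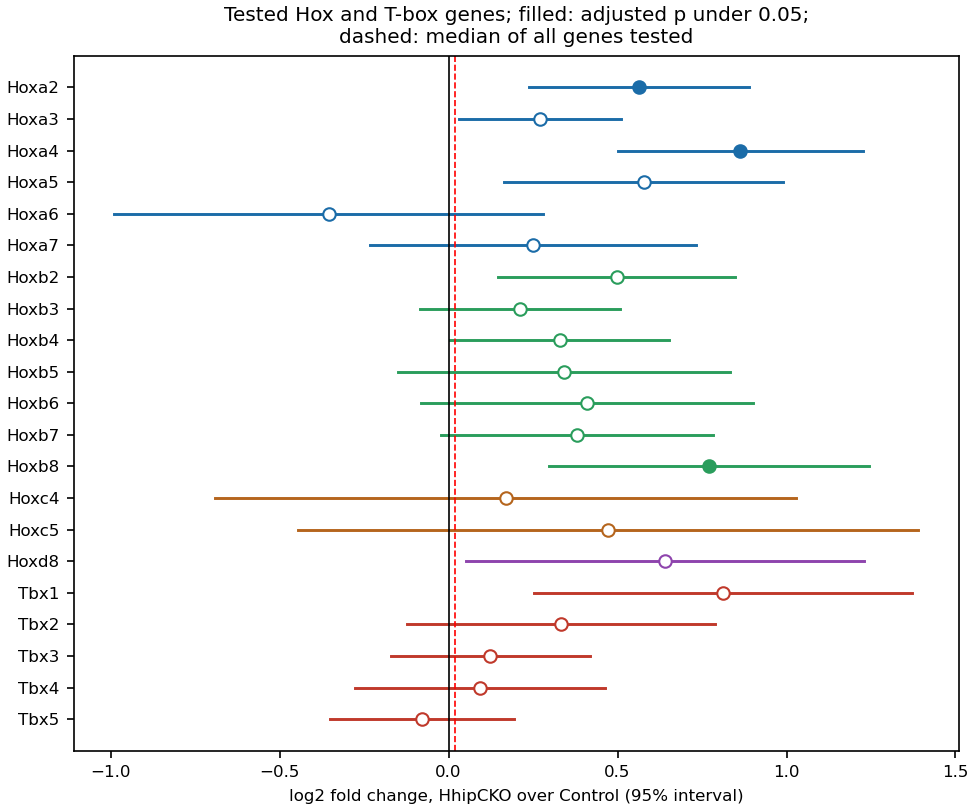
Log2 change of HhipCKO over Control (points) with the 95% interval from the authors' standard error (lines) for tested members, filled where the adjusted p was under 0.05, with the median of all tested genes as a dashed line. Hoxa4, Hoxa2 and Hoxb8 are filled, and the points of Hoxa6 and Tbx5 alone lie below 0.

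The precision of the members differed. From the authors' standard errors, the implied coefficient of variation between libraries was 11.9% for Hoxa3, the lowest, and 44.8% for Hoxc5, the highest. Its median was 20.1% over the 22 members and 18.6% over all tested genes. Of the 22, 16 lay above the middle of the genes within a doubling of their own mean count. The smallest fold that could have passed was 1.28 for Hoxa3, 1.53 for Hoxa5 and 2.58 for Hoxc5.

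**Figure D3:**
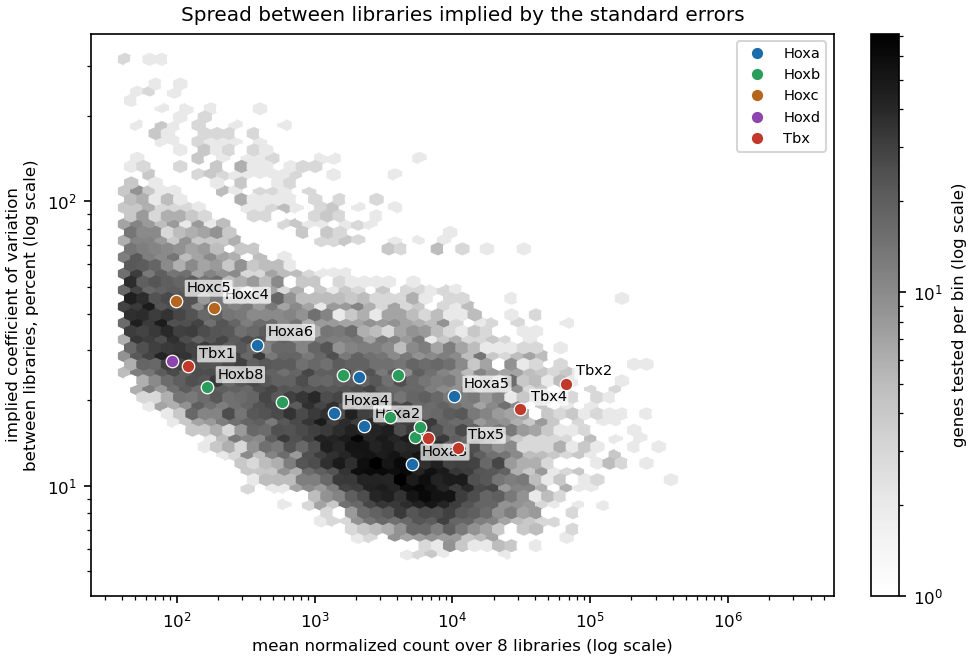
Coefficient of variation between libraries implied by the authors' standard errors (percent, log scale) against mean normalized count (log scale), with all tested genes as grey bins and tested members as coloured points. Hoxc5 at 44.8% and Hoxc4 at 42.3% are the highest members and Hoxa3 at 11.9% is the lowest.

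Other genes within the Hoxa and Hoxb clusters, many of them antisense or non-coding, gave no call. Of 23 such genes listed in the 4 clusters, 11 had an adjusted p by the authors' Wald test, 7 in Hoxa and 4 in Hoxb. Among these, 0 passed and 2 had an unadjusted p under 0.05. Of all tested genes, 6.98% passed in either direction and 10.9% on each side had such a p, so 0 calls among 11 does not set these genes apart. Of the 11, 8 had a positive log2 change, and the median was 0.24. Hotairm1, a non-coding RNA at the front end of the Hoxa cluster, had 0.46 ± 0.23 (SE), adjusted p 0.212, by the authors' deposited table. Gm27477, a short RNA between Hotairm1 and Hoxa2, is listed in the authors' deposited table at 0.43 ± 0.16 (SE), adjusted p 0.0730. By the authors' deposited table Hoxb3os had 0.30 ± 0.21, Hoxaas3 0.24 ± 0.35 and Hoxaas2 0.19 ± 0.25 (SE). The 3 with negative values were Gm29430, given with Hoxa4, Gm11536 at -0.44 ± 0.25 and 5730596B20Rik at -0.29 ± 0.21 (SE) by the authors' deposited table.

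Partners and chromatin regulators of Hox proteins are read against the 3.06% of all tested genes called higher and the 3.92% called lower. An unadjusted p under 0.05 (DESeq Wald test) was found for 10.9% of all tested genes on the higher side and 10.9% on the lower side. Among 9 TALE cofactors 1 rose and 0 fell, with a median log2 change of 0.08. Among 26 Polycomb and trithorax genes 0 rose and 2 fell, with a median of -0.01. Phc3, a subunit of Polycomb repressive complexes, is listed in the authors' deposited table at -0.59 ± 0.10 (SE), adjusted p 1.87e-06 (DESeq Wald test). Kmt2a, a histone methyltransferase that keeps Hox genes active, is listed in the authors' deposited table at -0.43 ± 0.09 (SE), adjusted p 9.75e-05 (DESeq Wald test). Neither passed without the trend on transcript length, when Phc3 had an adjusted p of 0.0721 and Kmt2a one of 0.875 (Benjamini-Hochberg). Among 16 tested upstream inputs such as retinoid receptors 0 passed by the authors' Wald test, 3 had an unadjusted p under 0.05 and the median was -0.06. Egr2, a hindbrain factor upstream of Hox genes, had 1.27 ± 0.50 (SE), adjusted p 0.102, by the authors' deposited table.

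Among 28 other mesenchymal transcription factors 2 rose and 0 fell, with a median of 0.02. Pitx1, a hindlimb identity factor, was 3.07-fold higher in HhipCKO, and the authors' deposited table lists 1.62 ± 0.36 (SE), adjusted p 0.000755 (DESeq Wald test). Meox2, a homeobox factor of mesoderm, is listed in the authors' deposited table at 0.89 ± 0.26 (SE), adjusted p 0.0175 (DESeq Wald test). With the length trend removed, Meox2 had 0.81 and an adjusted p of 0.0590 (Benjamini-Hochberg). Among 10 tested genes known as T-box targets in developing lung 1 rose, 0 fell and 5 had an unadjusted p under 0.05, with a median of 0.05. The list was not split by whether T-box factors raise or lower a gene, so its median does not measure their activity. Shisa3 was the gene that rose, 2.29-fold, and the authors' deposited table lists 1.19 ± 0.29 (SE), adjusted p 0.00204 (DESeq Wald test). Of all tested genes, 10.9% had an unadjusted p under 0.05 on the higher side and 10.9% on the lower side by the authors' Wald test. Among 5 other tested T-box genes 0 passed by the authors' Wald test, 2 had an unadjusted p under 0.05 and the median was -0.54. That median is the value of Mga, which was -0.19 with the length trend removed. Tbx6, a factor of early mesoderm, had -0.68 ± 0.27 (SE) by the authors' deposited table.

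**Figure D4:**
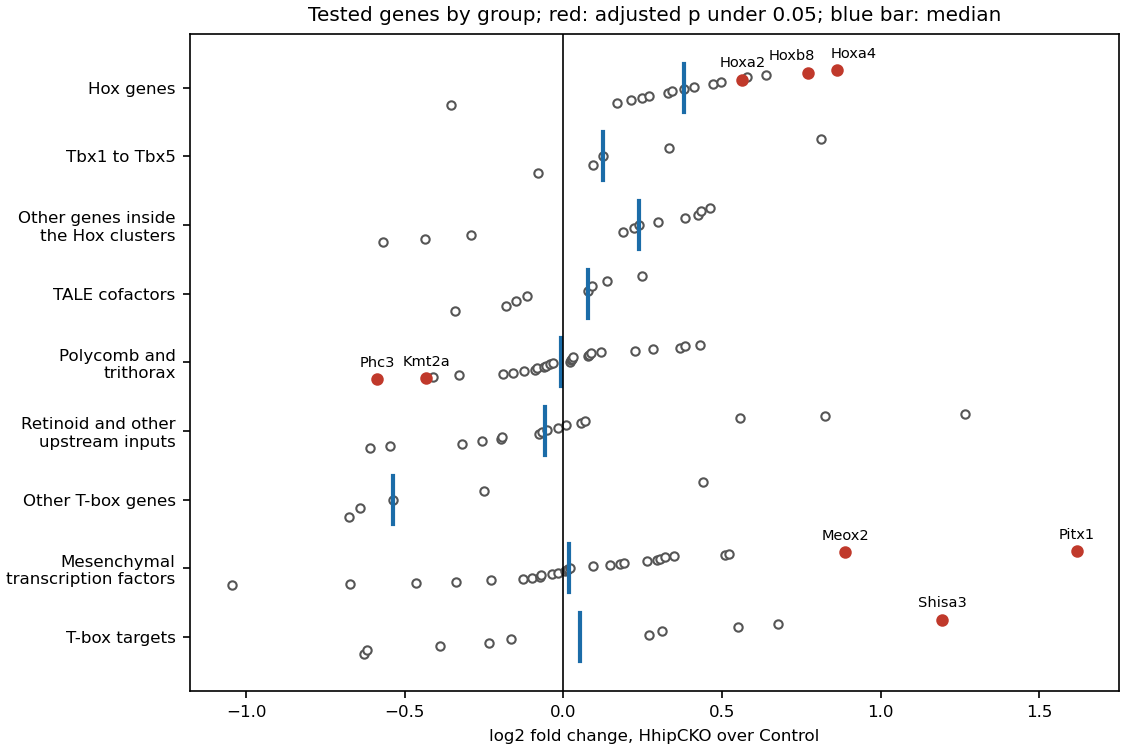
Log2 change of HhipCKO over Control for tested genes (points, red where the adjusted p was under 0.05), with the median over all tested genes of each group as a blue bar. The 17 Hox genes have a median of 0.38, and Pitx1 has the highest value shown, 1.62.

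No tested member changed sign under median centring or removal of the length or GC trend, but the sizes moved. With the length trend removed, Hoxa4 had 0.73 in place of 0.86 on the log2 scale, Hoxa2 0.45 in place of 0.56 and Hoxb8 0.71 in place of 0.77. Some uncalled members moved by more in proportion, Hoxc4 to 0.07 in place of 0.17, Hoxa7 to 0.15 in place of 0.25, Hoxb7 to 0.24 in place of 0.38, Tbx3 to 0.20 in place of 0.12 and Hoxa6 to -0.52 in place of -0.35. The members' transcripts were shorter than those of all tested genes, with medians of 2578.5 and 3068 bases.

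**Figure D5:**
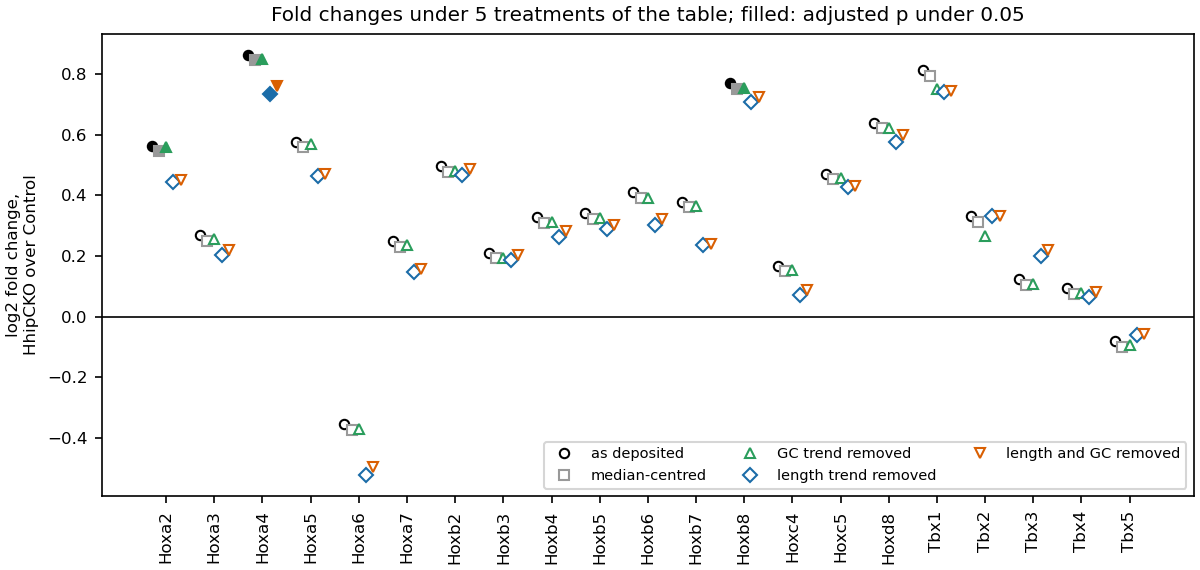
Log2 change of HhipCKO over Control for tested members under 5 treatments of the authors' values, filled where the adjusted p was under 0.05. Hoxa4 is filled under all 5, while Hoxa2 and Hoxb8 are open once the length trend is removed.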

How the data were processed

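RNA sequencing covered 4 HhipCKO and 4 Control libraries. RNA was isolated with QIAGEN RNeasy Mini Kits, checked with an Agilent Pico kit and sequenced at GENEWIZ, per the labels' protocols. FastQC, STAR and DESeq were used with GRCm38 (mm10), per the submitters' processing notes, and versions are not given in the sources used here.

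Per the file headers, the deposited signal is a mean normalized count over all libraries. The deposited log2 fold change has a standard error, and the Wald score was checked to be their quotient. Each deposited p-value comes with an adjusted p-value, which was checked to be the Benjamini-Hochberg value over 17469 genes. The table has 0 columns of values per sample, so depth is unknown, count models planned on values per sample could not be run, and the authors' Wald test was used.

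Implied group means, intervals, coefficients of variation and levels per kilobase (GENCODE M21, 31555 matched genes) were computed in Python 3.11.15 with statsmodels 0.14.6. The coefficients rest on dispersions as the authors' fit gave them. Trends on length or GC content were lowess curves with a span of 0.3. The adjustment of p-values and the removal of a length trend were tested on simulated log2 changes. Implied means, intervals, coefficients of variation and levels per kilobase were not.

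Named genes were all members, Hhip, and from each related list those past the threshold and up to 4 with the smallest adjusted p. Lower-ranked values, such as those of genes beside the Hox genes, Lyz2, Csf1r, Ager and the surfactant genes, were picked after they were seen. Members and lists were chosen with earlier results of these data known. Cell type lists numbered 14. Some genes are counted in their groups but not reported here by name or shown in figures.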

Additional observations from a re-analysis of the deposited data

How the results depend on the processing

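No paired analysis was possible because the table holds no values per sample. For the same reason leaving out each replicate and refits with other count tools were not run. At a mean count of at least 500, 2 members were higher, Hoxa2 and Hoxa4, and Hoxb8, with a mean of 165, was left out. Of the members, 3 were higher as reported, 1 (Hoxa4) with the length trend removed, 1 (Hoxa4) with length and GC trends removed, a setting chosen after seeing the data, 0 with standard errors scaled by the robust SD, and 0 against a 1.5-fold minimum. In the same order of these 4 settings, all genes gave 534 higher as reported, then 232, 217, 7 and 6, and 685 lower as reported, then 312, 294, 11 and 2. Polycomb and trithorax genes gave 2 lower as reported, then 0, 1 (Phc3), 0 and 0. Mesenchymal factors gave 2 higher as reported, 1 (Meox2) at a mean count of at least 500, then 1 (Pitx1), 1 (Pitx1), 0 and 0. TALE cofactors and T-box targets gave 1 higher each as reported, and 0 and 0 under the scaled errors and the 1.5-fold minimum. The cause of these differences was not tested. No direction reversed among 365 values of single genes. Settings that change only the filter, the standard errors or the minimum fold keep the deposited log2 change, so no reversal was possible there. Of the values, 160 of members and 178 of other named genes stayed on their side of the threshold, and 10 and 17 lost it. Scaled errors and the 1.5-fold minimum could not bring an uncalled gene past the threshold. Precision rests on the authors' standard errors alone.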

Other observations

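Genes beside the T-box genes were also looked at, within 15 kb on either side. Of 9 listed neighbours 5 were tested, and by the authors' Wald test 0 passed and 0 had an unadjusted p under 0.05. Such a p was found for 10.9% of all tested genes on each side. Tbx3os1, antisense to Tbx3, had a log2 change of 0.19 ± 0.16 (SE), and Gm43050, beside Tbx5, had 0.24 ± 0.19 (SE) by the authors' deposited table. Near Tbx2, Bcas3 had 0.16 ± 0.14 and 2610027K06Rik -0.15 ± 0.23 (SE) by the authors' deposited table. The 22 promoter windows of Hox and T-box members held a median of 14.5 CpG dinucleotides, against 7 in all 32851 windows, and their median GC content was 58.2%, against 52.7%.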
